A study of Mus musculus with 16 samples.

Results

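Genes of nucleotide, folate and polyamine synthesis were followed in mouse pre-B cells after an inducible pre-B cell receptor adaptor was switched on. The group was a list of 35 genes named for what their products do, drawn up with earlier results of these data known. Of these, 34 were found in the deposited tables and all 34 reached at least 1 CPM (reads per 1000000 exon reads) in some condition, out of 11122 of 38918 features that met the same minimum. Uck2, the remaining one, was not analysed here. The cells came from Blnk-/- mice, which lack the adaptor BLNK, and every condition, the control included, carried a retroviral construct for BLNK fused to the ERt2 domain, a form whose activity depends on tamoxifen. Unstimulated control cells were compared with cells after 0.5, 1.5 or 5 h of stimulation, which makes 4 conditions. The sources used here do not say whether the control received vehicle, or how many cultures or mice stood behind each condition. The BLNK-ERt2 product was overexpressed, per the labels, so its level need not match that of the natural adaptor.

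Purines and pyrimidines are built from amino acids, phosphoribosyl pyrophosphate and one-carbon units carried by folate, and they feed both RNA and DNA synthesis. Polyamines are made from ornithine and from decarboxylated S-adenosylmethionine, so the methionine cycle supplies the same pathway. Dividing lymphocytes draw on all of these routes, and several of the genes, among them Odc1, Cad and Srm, are known targets of the transcription factor MYC.

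RNA was sequenced once per condition: the 4 samples of a condition share 1 sequencing index and were lanes of 1 library, so they were summed and no test between conditions was possible. The libraries held 30746189 to 34533362 reads in exons, of which 84.0% to 84.6% were unique, and 3 reads, the limit that a count of 0 allows, came to 0.0869 to 0.0976 CPM. Of 13 pre-B cell markers 12 were found and each was above 1 CPM in every library, with a sum of 13090.4 CPM in the control and 12342, 11274 and 10672 CPM after stimulation. At the same time no stromal marker of 5 reached that level and Col3a1 was at 0. Summed myeloid markers, 3 of 7 above 1 CPM, stood at 72.7 CPM in the control and 69.6, 61.8 and 38.8 CPM after stimulation, of which Itgam alone made up 69.0, 66.3, 58.5 and 35.9 CPM. Summed T and NK cell markers, 1 of 7 above 1 CPM with Cd4 and Trbc1 at 0, lay at 13.9 to 19.8 CPM, nearly all of it Klrb1c (13.8 to 19.6 CPM). The part of these marker shifts in the results was not tested. Myc itself stood at 293 CPM in the control, 923 CPM at 0.5 h, 875 CPM at 1.5 h and 341 CPM at 5 h.

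The group as a whole stood slightly above the control at 1.5 h and 5 h, with different genes in the lead at each time. At 1.5 h Mat2a, Amd1 and Srm, of S-adenosylmethionine synthesis and use, and Ppat, of the first step of purine synthesis, stood highest above the control. Sms and Ahcy, also of S-adenosylmethionine use, were at 1.08-fold and 1.03-fold at that time. By 5 h Mat2a had come most of the way back, whereas Srm, Shmt1, Cad, Gart, Atic, Dctd and Mthfd1 were at their highest. Impdh1 and Ctps2 were lower in every stimulated library than in the control, as was Paics, whose log2 ratio at 5 h was -0.01. Because RNA was pooled from many cells, fewer expressing cells and less RNA per cell cannot be told apart.

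A gene was counted as called where log2((CPM + 1)/(control CPM + 1)) passed 1.5-fold and the higher library held at least 5 CPM. At 0.5 h no member of 34 was called, against 0.673% of 9516 features called higher and 0.147% called lower. At 1.5 h 4 members were called higher, 11.8% of the group, against 3.37% of 9512 features, and none lower against 1.99%. At 5 h 2 members were called higher, 5.88% of the group, against 2.21% of 9520 features, and none lower against 2.98%. From 1.5 h to 5 h 1 member, Mat2a, was called lower, 2.94% of the group against 2.12% of 9453 features, and none higher against 1.3%. No member passed 2-fold at any time. The 2-fold share among features was 0.284% higher and 0.021% lower at 0.5 h, 0.641% and 0.21% at 1.5 h, and 0.336% and 0.399% at 5 h. The comparisons with control share the control library, so an error in it would enter all of them.

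Below the threshold the group moved in small steps. The median log2 ratio of the 34 members was -0.02 at 0.5 h, 0.13 at 1.5 h and 0.20 at 5 h, while the median of all 11122 features stayed between -0.01 and 0.00 at these times. Members above the control numbered 14 at 0.5 h, 25 at 1.5 h and 29 at 5 h. These were 41.2%, 73.5% and 85.3% of the group, against 49.1%, 47.3% and 49.2% of all features. The highest of the 4 libraries was 5 h for 22 members, 1.5 h for 8, 0.5 h for Ahcy alone, and the control for Ctps2, Paics and Impdh1. Among all features 28.7% were highest at 5 h, 23.2% at 1.5 h, 20.5% at 0.5 h and 27.5% in the control. The 8 members highest at 1.5 h were thus near the share of all features.

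**Figure D1:**
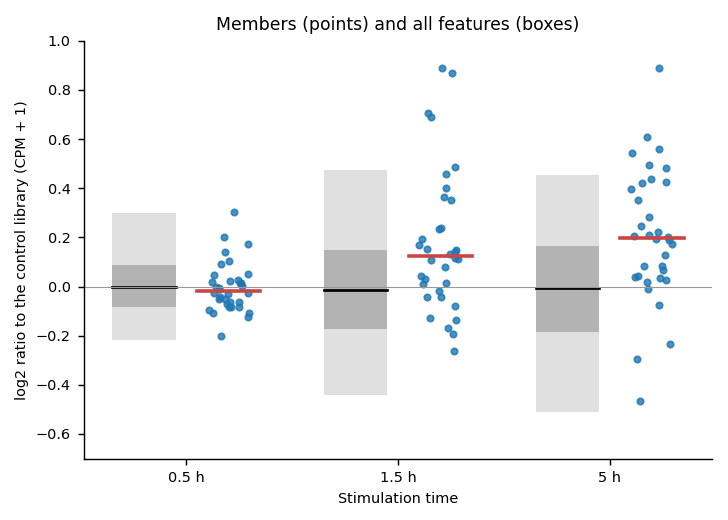
Log2 ratio to the control library on the CPM + 1 scale (vertical) at each stimulation time (horizontal); blue points are the 34 members, red bars their medians, and the grey boxes give the middle 50% (dark) and 90% (light) of 11122 features with their median in black. The members' median moves from -0.02 at 0.5 h to 0.20 at 5 h while that of all features stays near 0.

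**Figure D2:**
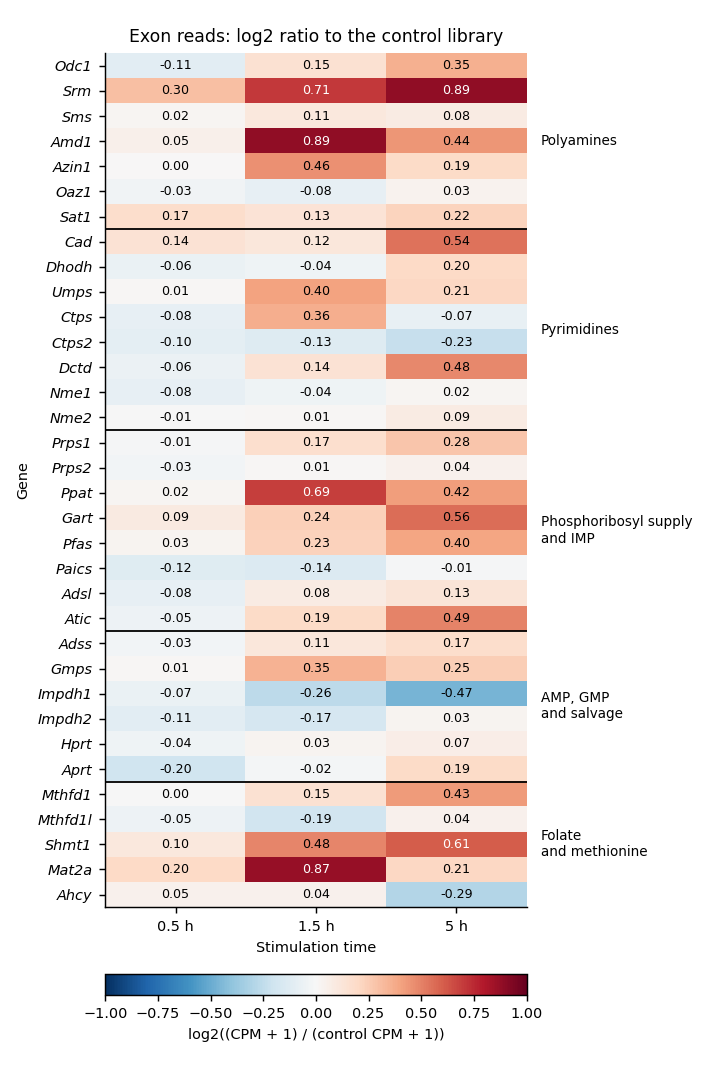
Log2 ratio of exon reads to the control library for each member (rows, grouped by role) at 0.5, 1.5 and 5 h (columns); red is higher and blue lower than control, and the number in each cell is the ratio. Amd1 (0.89) and Mat2a (0.87) stand out at 1.5 h, Srm (0.89) and Shmt1 (0.61) at 5 h, and Impdh1 is lowest at 5 h (-0.47).

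Promoter windows are shown for 6 members: 4 ranked by their ratio at 1.5 h, and Paics and Atic, which were added outside that ranking. Each runs from 250 bases before to 50 bases after the annotated start in RefSeq (GRCm38.p6) and is written 5′ to 3′ on the gene's strand. Capitals mark the E-box CACGTG, which MYC and its partner MAX can bind, the GC box GGGCGG or its reverse CCGCCC, and CCAAT or its reverse ATTGG. The windows are Amd1 at chr10:40302139-40302438, minus strand, Mat2a at chr6:72439507-72439806, minus strand, Ppat at chr5:76951529-76951828, minus strand, Paics at chr5:76951052-76951351, plus strand, Shmt1 at chr11:60811216-60811515, minus strand, and Atic at chr1:71556906-71557205, plus strand.
Amd1: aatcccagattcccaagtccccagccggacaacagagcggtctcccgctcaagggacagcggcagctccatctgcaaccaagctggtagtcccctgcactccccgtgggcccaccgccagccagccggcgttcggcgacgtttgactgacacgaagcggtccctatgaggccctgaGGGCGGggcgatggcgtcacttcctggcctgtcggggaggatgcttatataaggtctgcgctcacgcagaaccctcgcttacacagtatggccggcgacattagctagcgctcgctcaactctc
Mat2a: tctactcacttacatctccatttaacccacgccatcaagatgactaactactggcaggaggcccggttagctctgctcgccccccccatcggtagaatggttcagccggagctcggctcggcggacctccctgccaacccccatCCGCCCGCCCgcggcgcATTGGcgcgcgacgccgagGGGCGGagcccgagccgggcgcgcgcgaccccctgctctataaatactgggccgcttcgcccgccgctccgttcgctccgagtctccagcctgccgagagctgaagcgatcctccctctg
Ppat: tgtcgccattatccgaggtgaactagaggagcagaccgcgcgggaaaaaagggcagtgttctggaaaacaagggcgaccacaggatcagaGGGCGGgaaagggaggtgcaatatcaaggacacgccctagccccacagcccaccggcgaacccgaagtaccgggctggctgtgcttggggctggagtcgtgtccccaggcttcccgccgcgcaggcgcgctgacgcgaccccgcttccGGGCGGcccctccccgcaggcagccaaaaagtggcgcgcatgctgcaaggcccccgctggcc
Paics: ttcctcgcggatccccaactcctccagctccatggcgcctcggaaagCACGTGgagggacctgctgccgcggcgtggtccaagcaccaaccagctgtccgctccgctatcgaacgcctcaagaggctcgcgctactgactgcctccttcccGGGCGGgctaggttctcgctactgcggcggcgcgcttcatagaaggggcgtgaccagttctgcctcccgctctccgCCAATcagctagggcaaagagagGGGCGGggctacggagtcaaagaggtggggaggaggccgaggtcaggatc
Shmt1: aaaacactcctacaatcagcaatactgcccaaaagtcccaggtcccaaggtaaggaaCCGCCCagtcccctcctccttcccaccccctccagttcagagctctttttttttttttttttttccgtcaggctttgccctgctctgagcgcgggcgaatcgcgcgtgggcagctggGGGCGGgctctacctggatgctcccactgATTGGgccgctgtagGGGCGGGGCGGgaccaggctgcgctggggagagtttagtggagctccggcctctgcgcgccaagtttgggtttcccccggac
Atic: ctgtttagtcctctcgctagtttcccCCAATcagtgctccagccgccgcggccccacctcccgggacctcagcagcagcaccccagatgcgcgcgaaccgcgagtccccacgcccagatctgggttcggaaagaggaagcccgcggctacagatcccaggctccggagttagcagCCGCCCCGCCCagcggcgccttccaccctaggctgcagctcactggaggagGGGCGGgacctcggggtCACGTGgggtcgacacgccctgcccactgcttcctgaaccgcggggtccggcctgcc
Amd1, Mat2a, Ppat and Shmt1 are the 4 members with the largest ratio at 1.5 h among those with an entry, and none of their windows held CACGTG. Paics, which sits head to head with Ppat, held it 203 bases before its start, and Atic held it 7 bases before its start. Uncalled members without CACGTG are not shown, so these windows give no comparison of called with uncalled genes. Of the 30 members with an entry 5 held the E-box in at least 1 window (Sms, Paics, Atic, Impdh2 and Nme1), which is 16.7%, against 8.09% of 27025 genes in the promoter table and 12.1% of the 8059 of those that reached 1 CPM here. The GC box was present for 26 of 30 members (86.7%) against 38.2% of all genes and 69.7% of those at 1 CPM, and the CCAAT box for 13 of 30 (43.3%) against 41.1% and 43.9%. A match describes the letters of a window and nothing about binding in these cells.

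Polyamine synthesis begins with ornithine decarboxylase, and spermidine and spermine are then built by adding aminopropyl groups from decarboxylated S-adenosylmethionine. Srm, spermidine synthase (chr4:148591503-148594993, mm10), had 44.2 CPM in the control, 54.8 CPM at 0.5 h, 72.6 CPM at 1.5 h and 82.7 CPM at 5 h. It was the only member called at both later times, and each library stood above the one before it. Its CPM at 1.5 h was 1.64-fold that of the control (95% interval 1.54 to 1.76), and at 5 h the ratio was 1.87 (1.76 to 1.997). These exact intervals, as those below, cover the counting of reads only and not differences between cultures, and reads without molecular tags are not independent molecules. In total exon reads, lanes of 1 library could also spread more than counting gives. For the members, chi-square per degree of freedom between lanes, near 1 under counting alone, was 1.02 in the control. It was 1.60, 1.45 and 1.71 at 0.5, 1.5 and 5 h, so the intervals may be too narrow. Over all features tested it was highest in the control, at 1.34, against 1.31, 1.27 and 1.25 at these times. With unique exon reads the members gave 0.885 in the control and 1.04 to 1.21 after stimulation. All features tested gave 0.993 to 1.02 with unique exon reads.

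Amd1 encodes the decarboxylase that prepares S-adenosylmethionine for polyamine synthesis (chr10:40287458-40302188). It stood at 59.4 CPM in the control, 61.5 CPM at 0.5 h, 111 CPM at 1.5 h and 80.9 CPM at 5 h. The first 2 libraries lay close together, and the 1.5 h library was 1.87-fold above the control (1.77 to 1.97). For Amd1 the 5 h library was 1.36-fold above the control (1.28 to 1.44). Only 10.3% of its reads were unique, so its count rests on sequence shared with copies such as Amd2 (0.679 to 1.16 CPM), yet with unique reads alone the fold at 1.5 h was 1.84.

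Odc1, ornithine decarboxylase, the pathway's first enzyme, had 193 CPM in the control, 179 CPM at 0.5 h, 214 CPM at 1.5 h and 246 CPM at 5 h. It was lower than the control at 0.5 h and higher from 1.5 h, and its CPM at 5 h was 1.28-fold that of the control (1.24 to 1.32), short of the threshold. Azin1, whose product shields ornithine decarboxylase from antizyme, had 91.1, 91.4, 126 and 104 CPM, so its highest library was 1.5 h, at 1.38-fold the control, and not 5 h as for Odc1. Oaz1, the antizyme that sends ornithine decarboxylase to degradation, was the most abundant member per kilobase in every library, at 781 to 844 CPM. Sms, spermine synthase (101 to 109 CPM), and Sat1, which acetylates spermidine and spermine for breakdown and export (68.1 to 79.6 CPM), stayed within 1.17-fold of the control. Only 43.6% of Oaz1 reads and 28.75% of Sms reads were unique. With unique reads alone Sms was 1.14-fold the control at 1.5 h, against 1.08-fold in total reads.

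Methionine adenosyltransferase 2A, encoded by Mat2a, makes S-adenosylmethionine, the donor both for methylation and, after decarboxylation, for polyamines. Mat2a (chr6:72432799-72439558) had 208 CPM in the control, 239.7 CPM at 0.5 h, 382 CPM at 1.5 h and 240.4 CPM at 5 h. The 1.5 h library stood alone above the rest, at 1.83-fold the control (1.78 to 1.89), and from 1.5 h to 5 h the CPM went to 0.630 of its value (0.612 to 0.648). Per kilobase Mat2a ranked 7 among the 34 members in the control and 3 at 1.5 h. Ahcy, which clears the S-adenosylhomocysteine left by methylation, had 73.0, 75.3, 75.2 and 59.3 CPM and was 0.813 of the control at 5 h, but only 4.04% of its reads were unique and the unique reads gave 0.916.

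**Figure D3:**
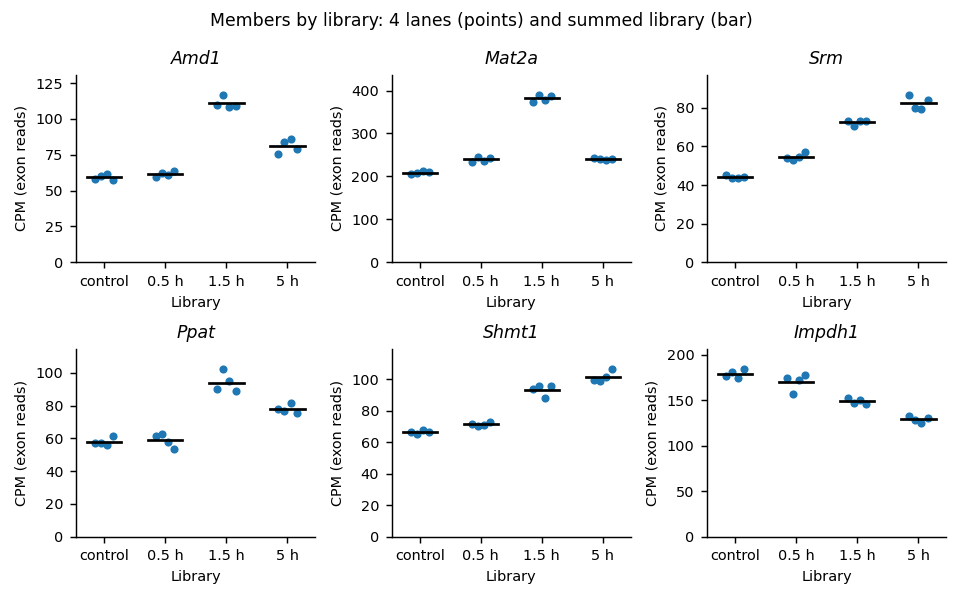
CPM of exon reads (vertical, from 0) in the 4 libraries (horizontal) for 6 members; points are the 4 lanes of each library, which are technical repeats, and bars the summed library. Every lane of Amd1, Mat2a and Ppat at 1.5 h lies above every lane of the control, and every Impdh1 lane at 5 h lies below it.

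Purine synthesis starts from phosphoribosyl pyrophosphate and reaches inosine monophosphate (IMP) through a chain of reactions, several on shared enzymes. Ppat, the amidotransferase that commits phosphoribosyl pyrophosphate to purines (chr5:76913249-76951578), had 58.0 CPM in the control, 58.8 CPM at 0.5 h, 94.1 CPM at 1.5 h and 78.0 CPM at 5 h. The interval at 0.5 h included 1 (0.953 to 1.08), and the 1.5 h library was 1.62-fold above the control (1.53 to 1.72). This call was lost with total gene reads (log2 ratio 0.54). Paics, whose product acts later in the chain, overlaps Ppat by 272 bases at the shared start, yet had 256, 235, 233 and 254 CPM and was 0.910 of the control at 1.5 h (0.883 to 0.939). The neighbours thus lay on opposite sides of the control at 1.5 h.

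Gart, a trifunctional enzyme of the same chain that uses a folate one-carbon unit, had 157 CPM in the control, 168 CPM at 0.5 h, 186 CPM at 1.5 h and 232 CPM at 5 h, a stepwise climb to 1.48-fold (1.42 to 1.53). Atic, which closes the ring to IMP, followed later, with 145, 140.0, 166 and 205 CPM and 1.41-fold at 5 h (1.36 to 1.46). Pfas, the amidotransferase acting after Gart's formyl transfer, was 1.32-fold above control at 5 h (1.26 to 1.37), and Adsl, which serves both the chain and AMP synthesis, 1.09-fold (1.03 to 1.16). Of the 6 members on the way from phosphoribosyl pyrophosphate to IMP, 5 lay above the control at 5 h, with a median log2 ratio of 0.41, and none was called. Prps1 and Prps2 both make phosphoribosyl pyrophosphate. Prps1 went from 71.5 CPM to 71.0, 80.5 and 87.1 CPM, 1.22-fold at 5 h, while Prps2 lay between 106 and 111 CPM.

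None of the 4 members on the branches from IMP was called at any time. Impdh1 and Impdh2 are isozymes of the step that leads to GMP. Impdh1 had 179 CPM in the control, 170.5 CPM at 0.5 h, 149 CPM at 1.5 h and 129 CPM at 5 h, lower in each later library, and it ended at 0.722 of the control (0.693 to 0.751), the lowest ratio of any member. Impdh2 had 167, 155, 148 and 169.7 CPM, a dip with return, and only 21.4% of its reads were unique. Gmps, which completes GMP, was 1.28-fold above the control at 1.5 h (110.4 to 141 CPM) and 1.19-fold at 5 h. Adss, on the AMP side, was 1.13-fold above it at 5 h (1.08 to 1.18). The salvage genes Hprt and Aprt were at 1.05-fold (1.01 to 1.09) and 1.15-fold (1.01 to 1.31) at 5 h, and Aprt lies wholly within the span of the feature Gm20388, from which its reads may not be separable.

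None of the 5 members of pyrimidine synthesis proper was called at any time; Cad and Dhodh were highest at 5 h, Umps and Ctps at 1.5 h, and Ctps2 in the control. Cad, which carries the opening activities of the pathway on 1 protein, had 187 CPM in the control, 206 CPM at 0.5 h, 202 CPM at 1.5 h and 272 CPM at 5 h. The 0.5 h and 1.5 h libraries lay slightly above the control, and the 5 h library was 1.46-fold above the control (1.41 to 1.51), just short of the threshold. Umps, which makes UMP, was highest at 1.5 h with 85.3, 86.0, 113 and 98.7 CPM, 1.32-fold at its top (1.26 to 1.39). Ctps, which makes CTP from UTP, had 67.4, 63.6, 87.1 and 64.0 CPM, so it was 1.29-fold above the control at 1.5 h (1.22 to 1.37) and 0.949 of it at 5 h (0.894 to 1.01), where the interval includes 1.

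The isozyme Ctps2 declined throughout, with 55.0 CPM in the control, then 51.4, 50.2 and 46.6 CPM, and was 0.848 of the control at 5 h (0.791 to 0.908). The 2 CTP synthases thus stood on opposite sides of the control at 1.5 h. Dhodh, the mitochondrial dehydrogenase of the pathway, lay at 28.6 to 34.6 CPM and per kilobase was the lowest member in every library. Dctd, which deaminates dCMP to dUMP on the way to dTMP, had 20.4, 19.5, 22.6 and 28.9 CPM and was 1.42-fold above control at 5 h (1.28 to 1.57). The nucleoside diphosphate kinases Nme1 (115 to 123 CPM) and Nme2 (261 to 279 CPM) hardly changed, but only 11.2% and 9.38% of their reads were unique. With unique reads alone Nme2 was 1.35-fold above the control at 5 h against 1.06-fold in total reads, and Gm20390, whose span covers nearly all of Nme2 and Nme1, had 9.21, 20.8, 23.0 and 16.3 CPM.

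Folate enzymes hand one-carbon units to purines and to dTMP. Shmt1, the cytosolic hydroxymethyltransferase that takes such units from serine (chr11:60788104-60811718), had 66.3 CPM in the control, 71.4 CPM at 0.5 h, 93.2 CPM at 1.5 h and 101.5 CPM at 5 h. Each library exceeded the one before, and Shmt1 was above the control by 1.41-fold (1.33 to 1.48) at 1.5 h and by 1.53-fold (1.45 to 1.62) at 5 h. Its call at 5 h was marginal: it was lost with a pseudocount of 5 CPM (log2 ratio 0.58), without lane 4 (0.58) and with total gene reads (0.47). Smcr8 overlaps Shmt1 by 184 bases and went from 123 to 206 CPM, and since strand use in counting was not given in the sources used here, reads in the overlap cannot be told apart.

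Mthfd1, the cytosolic trifunctional enzyme that interconverts folate one-carbon units, had 104, 104, 116 and 140.1 CPM and was 1.35-fold above control at 5 h (1.29 to 1.41). Mthfd1l, the mitochondrial enzyme that releases formate, had 217, 209, 189.7 and 224 CPM and was 0.875 of the control at 1.5 h (0.846 to 0.905). The pair therefore lay on opposite sides of the control at 1.5 h. At 5 h Mthfd1l was 1.03-fold the control, with an interval that included 1 (0.998 to 1.07). In the wider list, outside the group, with 63 genes tested, 2 folate transporters were called higher. These were Slc25a32 at 1.5 h, against 3.37% of all features, and Slc19a1 at 5 h, against 2.21%. Slc25a32, a mitochondrial folate carrier, had 10.3, 12.2, 20.5 and 15.3 CPM. Slc19a1, the reduced folate carrier of the cell surface, had 44.3, 51.2, 56.9 and 84.3 CPM. At 5 h Slc19a1 was 1.90-fold above the control (1.78 to 2.03). Slc46a1, the proton-coupled folate transporter, named here after its values were seen, had 2.14, 1.68, 1.69 and 2.02 CPM. It was thus under the 5 CPM that a call required and could not be called.

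Reads outside exons, taken as gene reads minus exon reads, gave a second measure for the same genes, since such reads can come from introns of unspliced RNA. Summed over all 34 members they stood, on the same CPM scale, at 407 in the control, 422 at 0.5 h, 598 at 1.5 h and 457 at 5 h. The 1.5 h library thus stood apart for reads outside exons, whereas summed exon reads climbed from 4605 and 4582 CPM to 5049 and then 5198.5 CPM. Ppat alone supplied 119 to 165 of these, more than its exon reads in every library, and without it the sums were 288, 299, 432 and 321. At 1.5 h the scaled reads outside exons were above the control in 32 of the 34 members, with a median log2 ratio of 0.71, though Oaz1 had only 1 such read in each library. The 2 below the control were Impdh1 and Ctps2. Without a minimum number of reads, the share above the control was not computed over all features.

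With at least 100 such reads in the pair of libraries, a minimum that a member could pass through its higher library, 30 members remained at 1.5 h. Their median log2 ratio was 0.72 against 0.08 among 8732 features, and 28 of them (93.3%) lay above the control against 59.6% of features. The exon median of the 30 members was 0.13, and the ratio outside exons exceeded the exon ratio for 24 of them (80%) against 62.7% of features. For 22 of the 30 the interval of the fold outside exons lay wholly above the exon fold, which was taken without its own interval. This count was not made for all features, so it has no background. At 5 h the median outside exons of 29 members was 0.15 against 0.17 for all features. From 1.5 h to 5 h it was -0.57 in 30 members against 0.08.

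**Figure D4:**
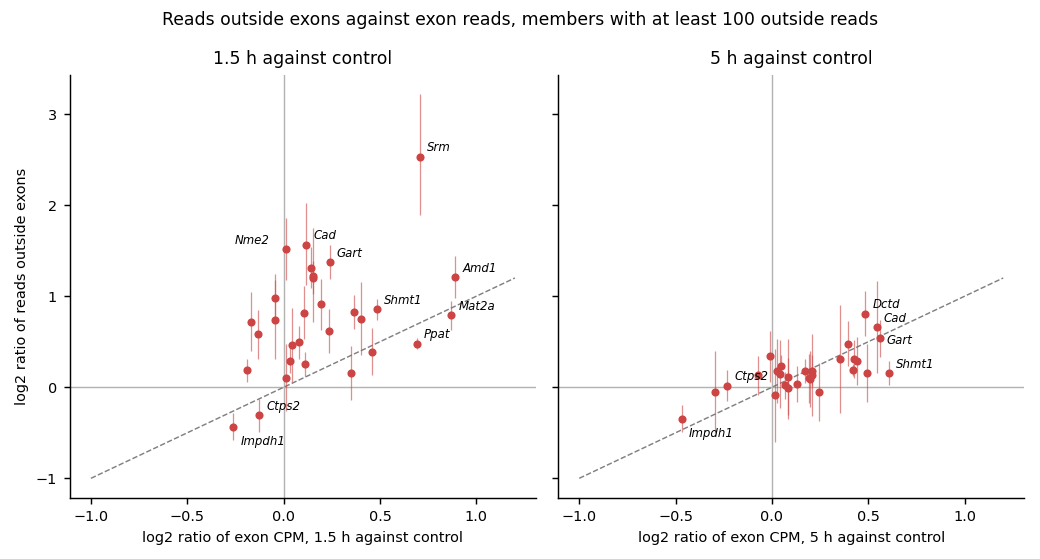
Log2 ratio of reads outside exons (vertical) against log2 ratio of exon CPM (horizontal) for members with at least 100 reads outside exons in the pair, at 1.5 h (left) and 5 h (right); vertical bars are 95% counting intervals and the dashed line marks equal ratios. At 1.5 h most members lie above the line, with Srm highest, whereas at 5 h they scatter about it.

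Single genes showed how the measures parted. Srm had 24 reads outside exons in the control and 131 at 1.5 h, which after scaling is 5.78-fold (3.72 to 9.34) against 1.64-fold in exons. Cad was 2.96-fold higher outside exons at 1.5 h (2.19 to 4.06) when its exon reads were 1.08-fold, and only at 5 h did its exon reads reach 1.46-fold. The same order held for Gart (2.59-fold outside exons at 1.5 h, 2.29 to 2.95), Mthfd1 (2.30-fold, 2.03 to 2.62), Dctd (2.48-fold, 2.12 to 2.92) and Atic (1.88-fold, 1.55 to 2.29). Exon folds of Gart, Mthfd1, Dctd and Atic ran from 1.11 to 1.18 at 1.5 h and from 1.35 to 1.48 at 5 h.

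Odc1 was 2.34-fold higher outside exons at 1.5 h (1.65 to 3.36), when its exon reads were 1.11-fold, and 1.93-fold higher already at 0.5 h (1.35 to 2.80), from 48 to 91 reads, while its exon reads were 0.929 of the control. At 5 h it was 1.24-fold outside exons (0.823 to 1.87) and 1.28-fold in exons. Odc1 was not alone at 0.5 h: of 29 members with at least 100 reads outside exons, 8 had an interval above 1 and 4 below 1. These counts were not made for all features. The median log2 ratio of the 29 was 0.07 against 0.005 among 8755 features, and 75.9% against 51.0% lay above the control.

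Mat2a was 1.73-fold higher outside exons at 1.5 h (1.55 to 1.93), close to its exon fold of 1.83, and at 5 h these were 1.14-fold and 1.15-fold. Impdh2 and Paics were higher outside exons at 1.5 h (1.65-fold and 1.50-fold) although their exon reads were below the control. Impdh1 was lower by both measures at 1.5 h, at 0.740 outside exons (0.668 to 0.820) and 0.833 in exons. Nme2 was 2.86-fold higher outside exons, where Gm20390 also lies.

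**Figure D5:**
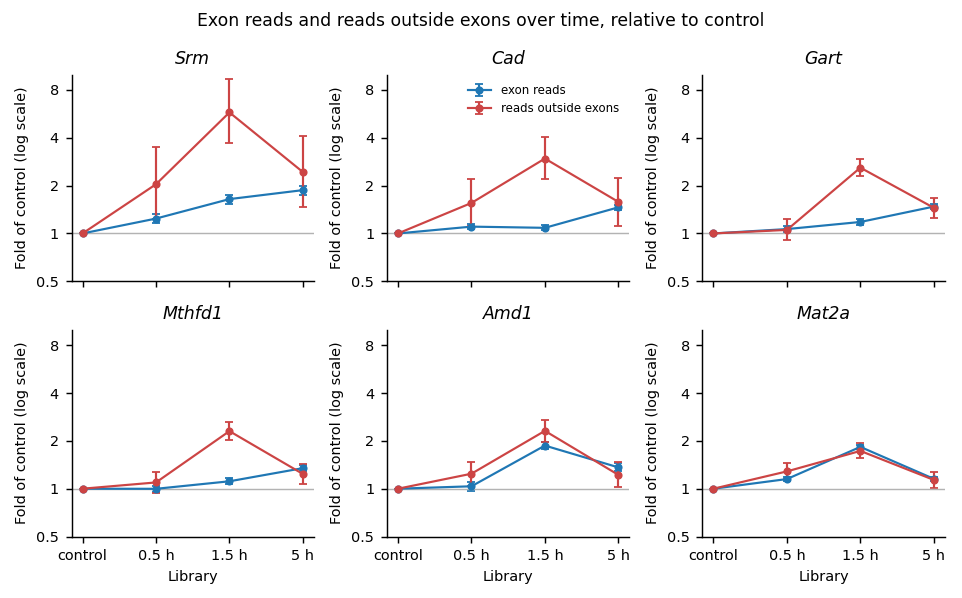
Fold of the control library (vertical, log scale) for exon reads (blue) and reads outside exons (red) of 6 members across the 4 libraries (horizontal); bars are 95% counting intervals. Srm, Cad, Gart and Mthfd1 are highest outside exons at 1.5 h and in exons at 5 h, while both measures of Amd1 and Mat2a are highest at 1.5 h.

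A wider list of 97 genes of the same pathways, of which 69 reached 1 CPM, gave a background for the members. Its median log2 ratio was -0.02 at 0.5 h, 0.01 at 1.5 h and 0.01 at 5 h. At 1.5 h 1 gene of the 63 tested was called higher (Slc25a32), against 3.37% of all features, and 2 lower, against 1.99%. The 2 were Dguok (17.1 to 11.1 CPM), a mitochondrial deoxyguanosine kinase, and Amt (6.98 to 3.98 CPM), of the glycine cleavage system. At 5 h 1 was called higher (Slc19a1), against 2.21% of all features, and none lower, against 2.98%. Below the control at 5 h lay 5648 of all 11122 features, with a median log2 ratio of -0.005. Of 13 deoxynucleotide genes 11 lay below the control at 5 h, with a median log2 ratio of -0.18. The largest ratio among these was that of Rrm2, the small subunit of ribonucleotide reductase, with 289 CPM in the control, 344 CPM at 0.5 h, 275 CPM at 1.5 h and 209.9 CPM at 5 h. It was highest at 0.5 h, lowest at 5 h and not called.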

How the data were processed

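Poly(A) RNA of 16 samples, 4 lanes for each of 4 conditions, had been sequenced on an Illumina instrument, and library kits of 2 makers are named in the labels without saying which library used which. The authors deposited, per the file headers, whole-number counts per feature of total and unique reads in genes, exons and intron-exon borders, in 3 tables that repeat the control with identical values. The submitters' processing notes name CASAVA 1.8.2 and mm10; for aligner, counter and strand setting: not given in the sources used here.

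Lanes were summed per condition, since they share 1 index, and exon counts were scaled to CPM. Ratios used a pseudocount of 1 CPM (0.1 CPM for reads outside exons); printed folds are CPM ratios without it, with exact Clopper-Pearson 95% intervals. With 1 library per condition edgeR, DESeq2 and other tests of replicates gave no p-value; their scaling factors (edgeR 4.0.16, DESeq2 1.42.0, R 4.3.3) were alternatives, beside Python 3.11.15, pandas 2.3.3 and scipy 1.17.1. The calling step was tested on simulated counts. Members, wider lists and tests were chosen with earlier results of these data known. Every member could be named; CPM in each library was given for members called and for preset key enzymes, and wider-list genes were named if called or if among the 6 largest other ratios. Promoter sequences came from RefSeq; Srm, Azin1, Dhodh and Pfas have no entry.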

Additional observations from a re-analysis of the deposited data

Results flagged for a closer look

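Among 136 groups of 4 lanes (34 members in 4 libraries), 7 held a lane that stood far from the other 3, 5.15% of them, and chance flags about 1 in 20 such groups. Lane 2 of the 1.5 h library gave Srm 70.5 CPM against 73.3 to 73.5 CPM in the other lanes, and Amd1 117 CPM against 108 to 109.5 CPM. In lane 2 of the control Dhodh had 27.1 CPM against 30.8 to 31.3 CPM and Ctps 61.4 CPM against 68.7 to 70.1 CPM. Oaz1 had 837 CPM in lane 2 of the 5 h library against 846 to 847 CPM. Lane 4 gave Adss 127 CPM against 120.1 to 121 CPM in the control, and Dctd 26.6 CPM against 29.6 to 29.9 CPM at 5 h.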

How the results depend on the processing

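Of 220 recomputed counts and medians, 214 stayed within 1.5 times the reported count or inside a band around the reported median. That band came from the ranks of the member values and was wide, 0.01 to 0.23 for exon reads at 1.5 h. Members are not replicates, so it is no error of the median. Counts with a lower minimum CPM could not change, since all 34 members met 5 CPM. The 6 others were counts of calls. Members called higher at 5 h numbered 1 with a pseudocount of 5 CPM and 1 with total gene reads, and 1 to 2 when each lane was left out in turn. With a 2-fold threshold the counts were 0 higher at 1.5 h, 0 higher at 5 h and 0 lower from 1.5 h to 5 h. Of 111 values for the called genes none reversed and 11 missed the threshold: 7 under the 2-fold rule, Shmt1 in 3 settings, and Ppat with total gene reads (0.54). Using lane number as a replicate block left 4 members called at 1.5 h and 2 at 5 h, with medians of 0.12 and 0.20. Median ratios with edgeR's and DESeq2's factors were 0.15 and 0.14 at 1.5 h and 0.21 at 5 h for both. Leaving out each lane gave medians of 0.10 to 0.14 at 1.5 h and 0.18 to 0.21 at 5 h. For reads outside exons the median at 1.5 h was 0.59 when 1 CPM was added before taking logs, 0.74 from unique reads, and 0.67 to 0.79 without each lane. Alternatives chosen after seeing the data gave 0.75 from reads spanning an intron-exon border (25 members), 0.71 with a minimum of 20 reads and 0.70 with 400, and members with at least 50% unique reads had an exon median of 0.15 at 1.5 h. Other minimum CPM values change no median, so they were run for the counts only. With 1 library per condition, spread between cultures is unknown, and members under about 20 CPM, such as Aprt, have wide counting intervals.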

Other observations

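Among the other genes of these pathways, those with the largest ratios below the calling threshold fell into both directions. Fpgs, which adds the glutamates that keep folate in the cell, had 27.8, 29.1, 39.7 and 36.5 CPM in the control and at 0.5, 1.5 and 5 h. Mthfd2, the mitochondrial folate dehydrogenase, had 161, 157, 160.2 and 119 CPM, and its 5 h value was 0.734 of the control. Pnp, which breaks purine nucleosides down for salvage, had 306, 285, 272 and 226 CPM. Atp13a2, a lysosomal polyamine exporter, had 607, 585, 527 and 446 CPM, lower in each library than in the one before. Nme3, a further nucleoside diphosphate kinase, reached 1.11 CPM at 5 h from 0.550 CPM, on 34 and 19 reads.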
